A study of Homo sapiens with 24 samples.

Results

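The replication-dependent histone genes of the HIST clusters were examined in 4 multiple myeloma cell lines after siRNA against IRF4, a transcription factor of the plasma cell lineage on which myeloma lines rely. The members were all named rows of the expression table with a symbol beginning HIST1H, HIST2H, HIST3H or HIST4H and a level of at least 1 TPM (transcripts per M, a level corrected for gene length and library size) in at least 3 of the 24 libraries. Of 73 such rows listed, 53 met the rule, among 15113 genes of the whole table that met the same filter. They comprised 4 genes of the linker histone H1 and 13 of H2A, 17 of H2B, 9 of H3 and 10 of H4, the core histones. On the GENCODE release 29 annotation 44 of them lie on chromosome 6, 8 on chromosome 1 and 1 on chromosome 12.

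RNA of MM1R, MM1S, KMS-12-BM and KMS-12-PE was sequenced with 3 siIRF4 and 3 CTRL libraries per line. MM1R and MM1S are glucocorticoid-resistant and glucocorticoid-sensitive derivatives of the same myeloma line, and KMS-12-BM and KMS-12-PE are a further related pair. siIRF4 cells were electroporated with a pool of siRNAs against IRF4 and have a label of 48 hours, while CTRL cells have a label of DMSO at 0 hours and no control siRNA is named. The loss of IRF4, the delivery of siRNA, the electric pulse, DMSO and the hours in culture therefore cannot be told apart. Nothing in the labels states that the replicates came from different cultures, and the p-values then reflect the spread of these libraries only, which may be technical.

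Histones package DNA into nucleosomes, and most of their genes are transcribed only while DNA is being copied in S phase. Their mRNAs end in a conserved stem-loop bound by the protein SLBP in place of a poly(A) tail, and are degraded when replication stops. A few of the genes also give polyadenylated mRNAs, which are made outside S phase and in cells that have left the cycle. Whether the libraries were made by poly(A) selection or by depletion of ribosomal RNA is not given in the sources used here, and a poly(A) selection would capture mainly the second kind.

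The stem-loop is shown because it sets the tail of these mRNAs. It was searched in transcripts of GENCODE release 29 on GRCh38, as a 16-base element whose first and last 6 bases pair without mismatch. A match also needed a set pattern of letters and at least 5 transcript bases on each side. Such a match was found in an annotated transcript of 24 of the 53 members. The other members had no such match, which says nothing of their mRNAs in these cells. An element nearer than 5 bases to an annotated end was not counted. There were 5 versions of the element, and 13 members shared the first one below, among them HIST1H2AC, HIST1H2BN, HIST1H3H and HIST3H2A. The second was shared by 4 members, HIST1H2BC, HIST1H2BD, HIST1H2BF and HIST1H3G. The third was held by HIST1H3E alone, the fourth by 5 members, all of them H4 genes, and the fifth by HIST1H4I alone. Capitals mark the element and lower case the 5 flanking bases on each side, 5′ to 3′, and the coordinates are those of the element.
HIST1H2AC, chr6:26124669-26124684, plus strand: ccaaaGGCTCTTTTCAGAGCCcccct
HIST1H2BD, chr6:26158587-26158602, plus strand: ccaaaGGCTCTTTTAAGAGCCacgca
HIST1H3E, chr6:26225596-26225611, plus strand: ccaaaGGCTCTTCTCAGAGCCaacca
HIST1H4E, chr6:26205001-26205016, plus strand: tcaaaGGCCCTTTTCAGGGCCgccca
HIST1H4I, chr6:27139654-27139669, plus strand: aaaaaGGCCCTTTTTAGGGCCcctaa

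HIST1H2AC and HIST1H2BK were the members called higher in all 4 lines, and their promoters are shown for that reason. Of the 53 members, 48 were matched to a RefSeq promoter window on GRCh38.p14, from 250 bases before to 50 bases after the start. Capitals mark the CCAAT box (CCAAT or ATTGG), the TATA box (TATAAA or TTTATA) and the octamer (ATTTGCAT or ATGCAAAT), the last being the element that OCT1 and OCT2 bind. Both strands were searched, and TATAAA and TTTATA can share letters. HIST1H2BK had 2 windows that start 3 bases apart, of which 1 is shown.
HIST1H2AC, chr6:26123922-26124221, plus strand: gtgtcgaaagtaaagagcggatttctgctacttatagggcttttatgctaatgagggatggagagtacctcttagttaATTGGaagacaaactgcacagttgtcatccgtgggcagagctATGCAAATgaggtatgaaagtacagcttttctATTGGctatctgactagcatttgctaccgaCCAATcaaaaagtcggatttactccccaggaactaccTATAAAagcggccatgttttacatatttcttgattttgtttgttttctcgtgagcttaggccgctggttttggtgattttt
HIST1H2BK, chr6:27146806-27147105, minus strand: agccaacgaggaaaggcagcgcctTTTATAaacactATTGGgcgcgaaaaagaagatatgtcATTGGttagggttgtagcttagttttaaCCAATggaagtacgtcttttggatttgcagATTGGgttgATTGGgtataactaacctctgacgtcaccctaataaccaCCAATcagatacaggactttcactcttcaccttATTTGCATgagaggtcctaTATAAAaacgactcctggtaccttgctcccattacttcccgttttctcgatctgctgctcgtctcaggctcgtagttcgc

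CCAAT was present in 41 of the 48 members (85.4%), against 39.8% of 27167 genes in the whole promoter table, and the 7 without it were all H4 genes. TATAAA was present in 32 (66.7%), against 14.0% of the table. The octamer was present in 22 (45.8%), against 2.19% of the table, and it was held by 9 of 12 H2A, 12 of 16 H2B and 1 of 8 H3 genes but by none of the 4 H1 and 8 H4 genes. HIST1H1C, the H1 gene with the highest level, held CCAAT only, and HIST1H2BD held CCAAT and TATAAA but not the octamer. A match describes these letters and not a bound site.

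The libraries held 17.15 to 27.16 M recovered reads, and IRF4 itself was lower in siIRF4 in every line. The difference was -0.39 on the log2 scale in MM1R, -1.01 in MM1S, -0.70 in the KMS-12-BM line and -1.07 in the KMS-12-PE line. Markers of plasma cells, the cell type of myeloma, summed to between 1519 and 7291 TPM over 8 genes in all libraries, with no marker at 0 throughout a group. In every line that sum was lower in siIRF4, without overlap, as in KMS-12-BM with 1519 to 1536 TPM in siIRF4 and 2025 to 2096 TPM in CTRL. Markers of B cells summed to at most 0.727 TPM over 4 genes outside KMS-12-BM, where they summed to 10.8 to 13.2 TPM. Collagen and other stromal markers summed to between 18.9 and 119.9 TPM over 4 genes in MM1S and KMS-12-PE, and to no more than 1.498 TPM in the other lines. In KMS-12-PE the stromal sum was 18.9 to 26.4 TPM in siIRF4 and 55.4 to 84.0 TPM in CTRL, and that of 5 myeloid markers 36.3 to 51.5 TPM in siIRF4 and 147.1 to 183.2 TPM in CTRL. In MM1R the myeloid sum was 92.2 to 98.7 TPM in siIRF4 and 22.2 to 27.2 TPM in CTRL. The sum of 5 T and NK cell markers was 27.1 to 31.1 TPM in siIRF4 and 9.74 to 11.4 TPM in CTRL of KMS-12-PE, and 5.75 to 17.3 TPM in the other lines. The sum of 4 epithelial markers was 163.8 to 184.4 TPM in siIRF4 and 225.1 to 245.7 TPM in CTRL of KMS-12-PE, and 3.18 to 156.8 TPM in the other lines. The part of these markers in the histone results was not tested.

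A total of 4 libraries stood apart from others of their own group in RMRP and RPPH1, 2 structural RNAs that carry no poly(A) tail. In KMS-12-PE, RMRP stood at 22.2, 9.42 and 5.99 TPM in siIRF4 and at 160.6, 19.7 and 230.1 TPM in CTRL, so that CTRL replicates 1 and 3 were above all others. In MM1S it stood at 11.9, 16.3 and 49.98 TPM in siIRF4 and at 62.2, 4.45 and 5.66 TPM in CTRL, so that siIRF4 replicate 3 and CTRL replicate 1 were above their own groups. RPPH1 was high in the same libraries, with 60.9 and 73.7 TPM in replicates 1 and 3 of the KMS-12-PE CTRL group against 8.06 TPM in its replicate 2. In MM1R RMRP stood at 35.65 to 48.81 TPM, and in KMS-12-BM at 46.93, 15.52 and 53.49 TPM in siIRF4. The libraries of both lines were kept, so the MM1S libraries left out were high mainly beside their own groups. Since most histone mRNAs also lack a tail, the main counts below are also given without the 4 libraries. That leaves KMS-12-PE CTRL with 1 library, which is assumed to vary like the others. In MM1R and KMS-12-BM the differences then stay the same, and only the shared spread behind the p-values changes. The shares of all genes called were not counted in that fit, so its counts of members have no background beside them.

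Among the members, HIST1H1C, a linker histone gene, had the highest mean over the 24 libraries (62.0 TPM), followed by HIST1H2BK (47.55 TPM), HIST1H2AC (22.1 TPM), HIST1H2BD (18.8 TPM), HIST3H2A (16.7 TPM) and HIST1H2BH (11.5 TPM). In the table's own gene models, whose lengths were recovered from the values, 44 members had fewer than 600 bases and 9 had 600 or more. HIST2H2BE was the longest at 2223 bases, while HIST1H4K had the shortest model at 354 bases. A TPM is read per length, so that HIST1H2BK rested on 64 to 986 reads per library and HIST1H4K on 0 to 42.

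The members just inside the rule were HIST1H1B, HIST1H1D and HIST1H4A, each at 1 TPM or more in 3 libraries. Just outside were HIST1H3A, at that level in 2 libraries with a highest value of 1.383 TPM, and HIST1H2BB and HIST3H3, in 1 library each. HIST1H1B passed through KMS-12-PE, HIST1H1D through CTRL of both KMS-12 lines and HIST1H4A through CTRL of MM1R and KMS-12-BM, so a difference in these 3 follows in part from the filter. HIST1H1B, HIST1H1D, HIST1H2AH and HIST3H2BB reached 1 TPM in KMS-12 libraries only and HIST1H3C in MM1 libraries only, and for these 5 members the same holds of a difference between the pairs of lines. HIST2H2AA3 and HIST2H2AA4, HIST2H3A and HIST2H3C, and HIST2H4A and HIST2H4B, which are near-identical pairs of copies, and HIST1H2AA were listed at 0 in all 24 libraries. Histone genes of a family also share much of their coding sequence, and how the authors' counting treated reads shared between copies, or between overlapping genes of opposite strands, is not given in the sources used here.

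After siIRF4 a minority of the histone genes differed, and more of these were higher than lower. HIST1H2AC and HIST1H2BK were higher in every line, HIST1H3E in the MM1 lines and HIST1H2BJ in the KMS-12 lines, while HIST1H1E was lower on average. Averaged over the lines with equal weights, 14 members were higher and 4 lower (limma on log2(TPM + 1), Benjamini-Hochberg adjusted p under 0.05 over 15113 genes). Of all genes tested 33.1% were called higher and 26.5% lower, 59.6% in all, so the higher calls among members were near the background share and read as no result about the group. The median log2 difference was -0.01 over members and 0.02 over all genes. By family, 1 H1 gene was higher and 2 lower of 4, 4 H2A genes higher and 2 lower of 13, 5 H2B higher and none lower of 17, 2 H3 higher and none lower of 9, and 2 H4 higher and none lower of 10. Without the 4 libraries that stood apart, 16 members were higher, 12 of them shared with the 14, and 1 was lower, HIST1H1E. The higher ones were then 5 H2A, 6 H2B, 3 H3 and 2 H4 genes.

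**Figure D1:**
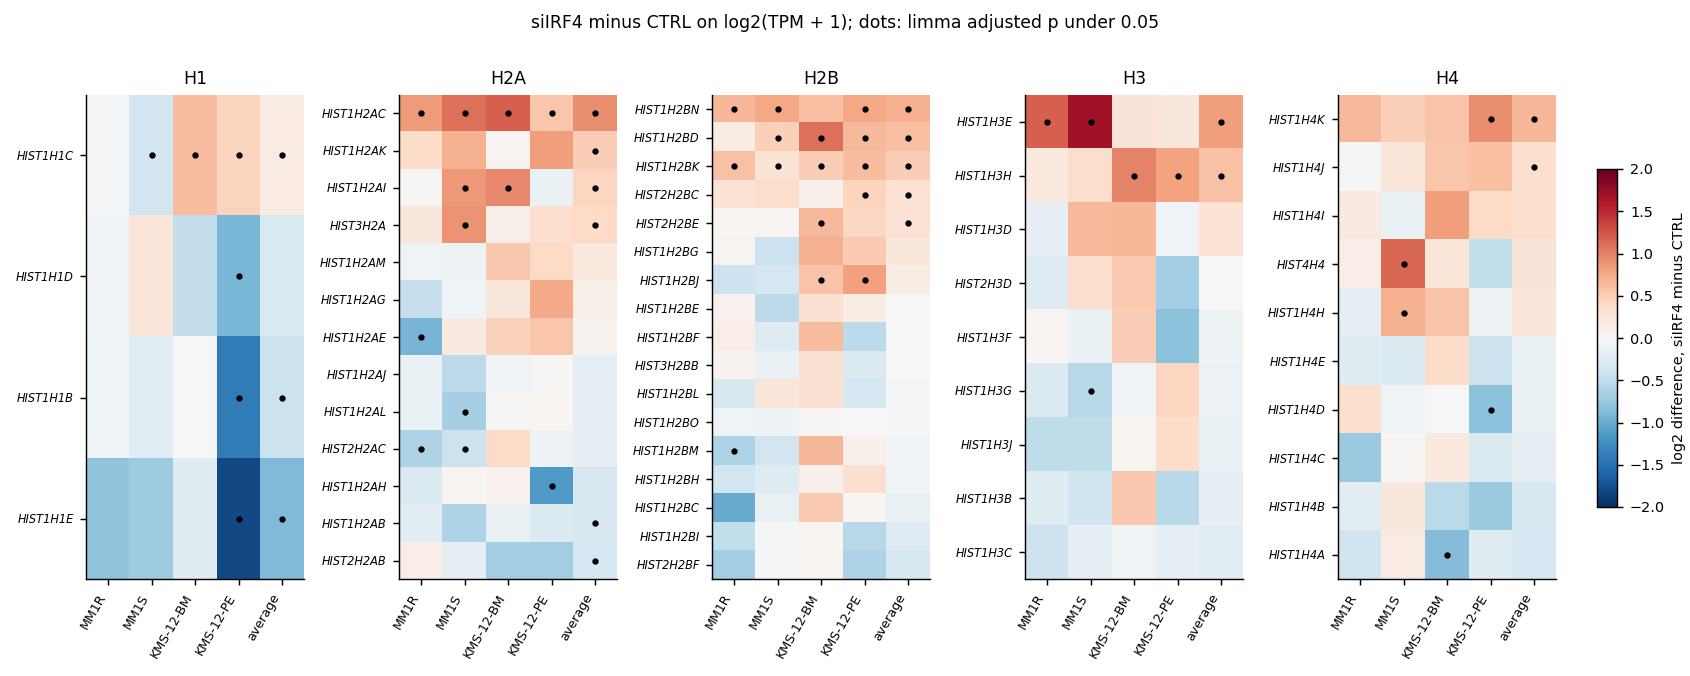
Difference of siIRF4 minus CTRL on log2(TPM + 1) for each of the 53 members (rows, by family) in each line and on average (columns); red is higher and blue lower in siIRF4, and dots mark a limma adjusted p under 0.05. HIST1H2AC and HIST1H2BK have a dot in every column, while the dark blue H1 cells stand in the KMS-12-PE column.

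Among the 4 lines, 27 members were called in none. The share of all genes called in none was not counted, so this number reads as no result about the members. In MM1R 4 members were higher and 3 lower, where 25% of all genes were higher and 21.2% lower (46.2% in all). In MM1S 9 were higher and 4 lower, against 29.1% and 21.1% of all genes (50.3% in all). In KMS-12-BM 8 were higher and 1 lower, against 11.4% and 6.09% (17.5% in all). The lower one was HIST1H4A, which passed the filter through CTRL of MM1R and KMS-12-BM only, so that call follows in part from the filter. In the KMS-12-PE line 9 were higher and 5 lower, against 15.9% and 22.2% (38.1% in all). In KMS-12-BM 43 of the 53 members had a positive difference, called or not, with a median of 0.31 on the log2 scale, against a median of 0.04 over all genes in that line. The members' medians were -0.09 in MM1R, -0.07 in MM1S and 0.02 in the KMS-12-PE line. All 17 H2B genes had a positive difference in KMS-12-BM, 4 of them called, with a median of 0.50. The next counts leave out the 4 libraries, none of them of MM1R or KMS-12-BM. In those lines the counts change only through the spread shared by all groups in the fit. The shares of all genes above belong to the fit with all libraries and are no background to these counts. With the 4 libraries left out, MM1S had 6 higher and 3 lower, KMS-12-PE 13 higher and 0 lower, of which 5 were among the 9 above, MM1R 4 higher and 7 lower, and KMS-12-BM 9 higher and 1 lower.

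Summed over the members, histone genes took 633 ± 60.9 TPM in siIRF4 and 434 ± 12 TPM in CTRL of KMS-12-BM (SD, n = 3 each). All 3 siIRF4 libraries lay above all 3 CTRL libraries, at 585 to 702 TPM against 424 to 448 TPM. In KMS-12-PE the sums were 437 ± 8.76 TPM in siIRF4 and 349 ± 72.0 TPM in CTRL, again without overlap, at 430.8 to 447 TPM against 269.9 to 410.3 TPM. In MM1S they were 232 ± 19.96 TPM in siIRF4 and 219.5 ± 31.3 TPM in CTRL, with overlap. In MM1R they were 148 ± 11.3 TPM in siIRF4 and 161.5 ± 4.18 TPM in CTRL, and the highest siIRF4 library (156.5 TPM) lay just under the lowest CTRL library (156.7 TPM). In bulk RNA a larger share of cells in S phase and more histone mRNA per cell cannot be told apart.

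**Figure D2:**
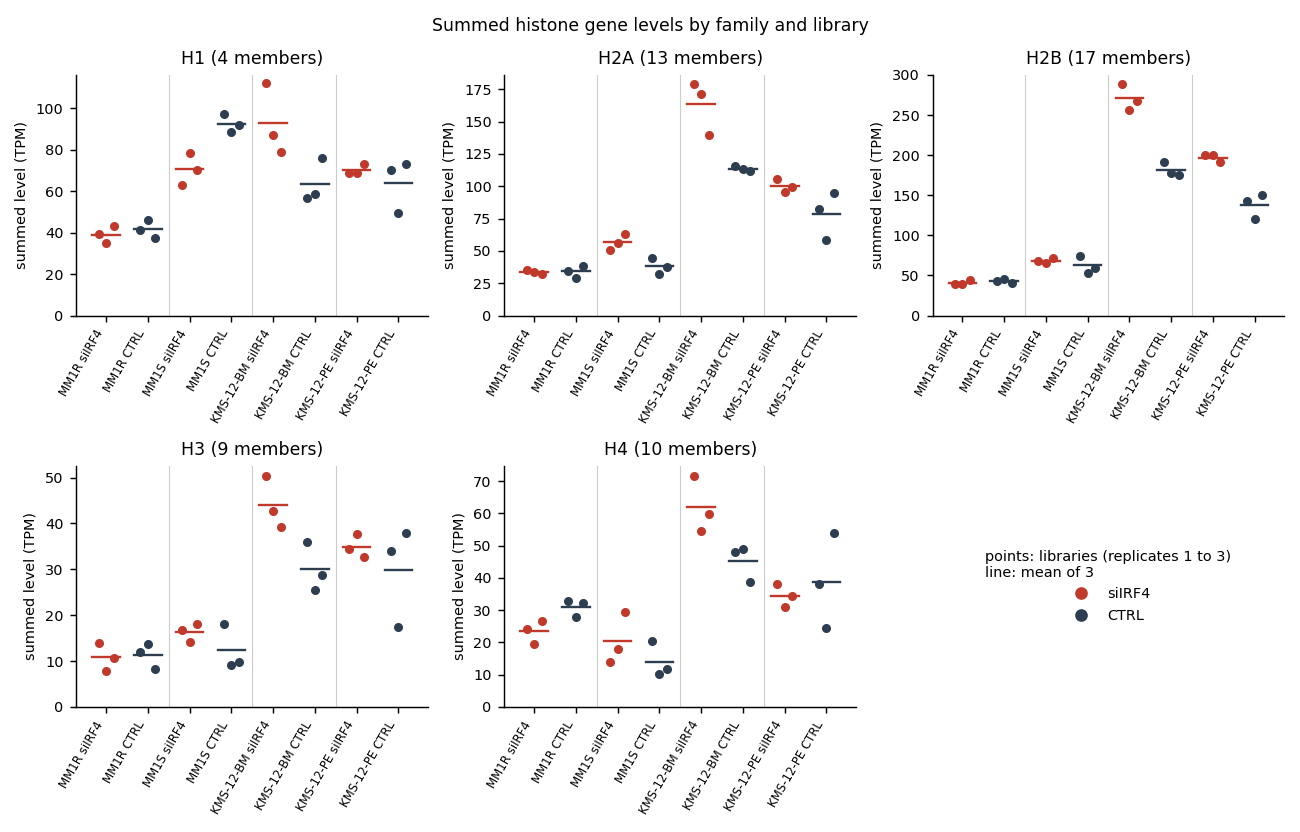
Summed level in TPM of the members of each family (panels) in every library; red points are siIRF4 and dark points CTRL libraries, and lines are means of 3. In KMS-12-BM the siIRF4 points lie above the CTRL points in all 5 families, as for H2B with 256.6 to 288.1 TPM against 175.0 to 190.9 TPM, and in MM1S the H1 points of siIRF4 lie below those of CTRL.

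Among the families, H1 held 26.4% of the members' summed TPM in siIRF4 and 25.8% in CTRL of MM1R, and 30.4% in siIRF4 and 42.2% in CTRL of MM1S. It held 14.67% in siIRF4 and 14.69% in CTRL of KMS-12-BM, and 16.1% in siIRF4 and 18.4% in CTRL of KMS-12-PE. H2B held 27.8% in siIRF4 and 26.9% in CTRL of MM1R, but 42.8% in siIRF4 and 41.8% in CTRL of KMS-12-BM. H3 held between 5.62% and 8.53% in the 8 groups. These shares are descriptions and were not tested.

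Of the linker histones, HIST1H1C carried most of the H1 signal, and it was higher in the KMS-12 lines and lower in MM1S. H1 binds the DNA that enters and leaves the nucleosome, and HIST1H1C is among the histone genes with known polyadenylated mRNAs. In KMS-12-BM it stood at 105, 83.1 and 73.8 TPM in siIRF4 and at 51.5, 50.9 and 67.7 TPM in CTRL, with every siIRF4 library above every CTRL library. The difference was 0.61 ± 0.13 on the log2 scale (SE, limma adjusted p = 0.00212). In KMS-12-PE it stood at 65.8, 67.3 and 70.8 TPM in siIRF4 and at 49.6, 46.0 and 53.6 TPM in CTRL, a difference of 0.45 (limma adjusted p = 0.00903). In MM1S the order was the other way, with 62.8, 77.6 and 67.5 TPM in siIRF4 and 93.8, 87.3 and 90.6 TPM in CTRL, a difference of -0.39 (limma adjusted p = 0.0158). MM1R showed overlapping groups, at 37.1, 33.2 and 40.2 TPM in siIRF4 and 36.2, 42.7 and 33.2 TPM in CTRL. The effect in the MM1 lines minus that in the KMS-12 lines was -0.73 ± 0.13 (limma adjusted p = 0.000109). Leaving out the 4 libraries, this was -0.76 (limma adjusted p = 0.00219), while the adjusted p was 0.124 in MM1S and 0.0588 in KMS-12-PE. The average over the lines, 0.16 (limma adjusted p = 0.0322), was then 0.20 with an adjusted p of 0.0531, and its adjusted p also reached 0.05 or more with 10 of the 24 libraries left out singly. In MM1S the call was lost without siIRF4 replicate 1 or CTRL replicate 1 (limma adjusted p = 0.0743 and 0.0509).

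The other linker histone genes were lower in KMS-12-PE, and by less once the libraries with high RMRP were left out. HIST1H1E stood at 1.49, 0.804 and 1.15 TPM in siIRF4 and at 11.1, 1.82 and 11.0 TPM in CTRL, without overlap, but with CTRL replicate 2 close to the siIRF4 libraries. HIST1H1B stood at 1.03, 0.456 and 0.888 TPM in siIRF4 and at 6.37, 0.974 and 6.01 TPM in CTRL, on at most 47 reads, and the groups overlapped. In this line the difference was -1.80 ± 0.45 for HIST1H1E (limma adjusted p = 0.00401). It was -1.40 ± 0.34 for HIST1H1B (limma adjusted p = 0.00324) and -0.92 ± 0.28 for HIST1H1D (limma adjusted p = 0.0157). HIST1H1B passed the filter through KMS-12-PE only, and HIST1H1D through CTRL of the KMS-12 lines only. The differences of both follow in part from the filter, and their p-values are descriptive. When the 4 libraries were left out, the differences of HIST1H1E, HIST1H1B and HIST1H1D were -0.41, -0.15 and -0.08, with replicate 2 alone left in CTRL. With all libraries and the level of RMRP and RPPH1 as a covariate they were -0.77, -0.71 and -0.41. The limma adjusted p was then 0.0232, 0.0474 and 0.258. HIST1H2AH, an H2A gene, and HIST1H4D, an H4 gene, were the further members called lower in KMS-12-PE, at -1.13 and -0.82. They stood at 0.18 and -0.06 without the 4 libraries, and at -0.43 and -0.37 with the covariate, where neither was called.

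In the MM1 lines, HIST1H1E had 1.51, 1.10 and 2.06 TPM in siIRF4 and 4.19, 2.58 and 3.65 TPM in CTRL of MM1R, without overlap, and 0, 0.284 and 1.25 TPM in siIRF4 and 2.58, 0.843 and 0.901 TPM in CTRL of MM1S. With all libraries these differences, -0.81 and -0.71, had limma adjusted p of 0.155 and 0.209. Without the 4 libraries they were -0.81 and -0.72, that in MM1R being unchanged because no MM1R library was left out. With the RMRP and RPPH1 covariate they were -0.74 and -0.93, both called lower (limma adjusted p = 0.0062 and 0.000935). The average over the lines was -0.89 with all libraries (limma adjusted p = 0.00238) and -0.54 without the 4 (limma adjusted p = 0.000565).

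**Figure D3:**
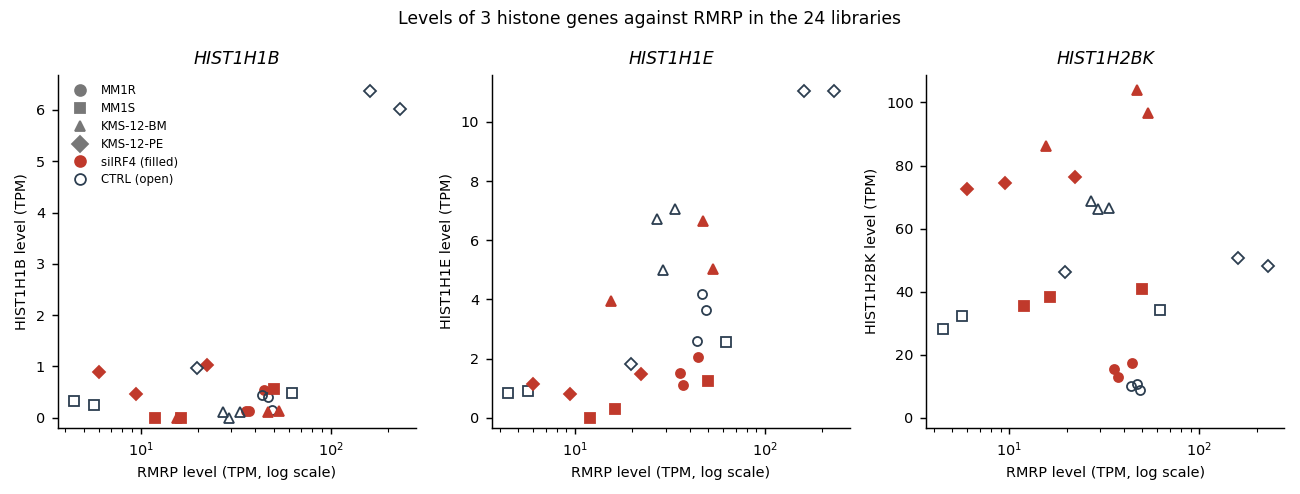
Level in TPM of HIST1H1B, HIST1H1E and HIST1H2BK (panels) against that of RMRP in TPM (log scale) in each of the 24 libraries; filled red symbols are siIRF4, open dark symbols CTRL, and shapes give the line. The open diamonds at 160.6 and 230.1 TPM of RMRP are KMS-12-PE CTRL replicates 1 and 3, which have the highest HIST1H1B and HIST1H1E levels but not the highest HIST1H2BK.

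Among the H2A genes, HIST1H2AC was higher in siIRF4 in all 4 lines. It encodes a core H2A and is among the genes with known polyadenylated mRNAs. In MM1R it stood at 14.1, 13.1 and 13.4 TPM in siIRF4 and at 7.78, 6.77 and 6.72 TPM in CTRL. In MM1S it stood at 22.1, 27.0 and 28.9 TPM in siIRF4 and at 15.9, 9.94 and 9.62 TPM in CTRL. In KMS-12-BM it stood at 54.7, 54.8 and 43.0 TPM in siIRF4 and at 22.3, 22.7 and 19.8 TPM in CTRL. In each of these lines the groups were apart, and so they were in KMS-12-PE, where the gap was smallest, with 29.3, 25.6 and 26.8 TPM in siIRF4 and 15.7, 16.1 and 23.6 TPM in CTRL. By line in that order, the log2 differences were 0.84, 1.10, 1.19 and 0.56 (SE 0.16 each), with limma adjusted p of 0.000285, 1.4e-05, 3.87e-05 and 0.0105. The average was 0.92 ± 0.08 (limma adjusted p = 1.21e-08), and 0.999 without the 4 libraries. In KMS-12-PE the call of HIST1H2AC was lost without CTRL replicate 1 (0.46, limma adjusted p = 0.0558) and without CTRL replicate 2 (0.48, limma adjusted p = 0.0511). The difference between the effects in the KMS-12 lines, BM minus PE, was 0.64 (limma adjusted p = 0.0528).

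HIST3H2A, an H2A gene on chromosome 1, was higher in MM1S. It stood at 12.4, 10.8 and 15.2 TPM in siIRF4 and at 6.79, 5.34 and 6.93 TPM in CTRL of that line, a difference of 0.90 ± 0.23 (limma adjusted p = 0.00335). The effect in MM1R minus that in MM1S was -0.68, with a limma adjusted p of 0.309, so a difference between the lines was not shown. HIST1H2AI was higher in MM1S at 0.86 and in KMS-12-BM at 0.96 (limma adjusted p = 0.00765 and 0.0121), the call in MM1S being lost without the 4 libraries (0.68, limma adjusted p = 0.0656). In KMS-12-BM it stood at 9.63, 10.1 and 9.08 TPM in siIRF4 and at 4.06, 3.94 and 5.50 TPM in CTRL, while in KMS-12-PE the groups overlapped around a mean of 1.66 TPM in siIRF4 and 1.90 TPM in CTRL.

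A few H2A genes went the other way in the MM1 lines. HIST2H2AC stood at 6.54, 5.93 and 7.20 TPM in siIRF4 and at 10.2, 10.7 and 11.0 TPM in CTRL of MM1R, a difference of -0.62 ± 0.16 (limma adjusted p = 0.00358). In MM1S it stood at 4.88, 4.85 and 4.24 TPM in siIRF4 and at 6.61, 5.45 and 7.86 TPM in CTRL, a difference of -0.42 (limma adjusted p = 0.0361, and 0.139 without the 4 libraries). The groups were apart in both lines. In the KMS-12 lines its differences were 0.38 and -0.10, neither called, and the effect in the MM1 lines minus that in the KMS-12 lines was -0.67 (limma adjusted p = 0.00231). HIST1H2AE was lower in MM1R, with 1.22, 0.192 and 0.452 TPM in siIRF4 and 2.07, 1.69 and 2.24 TPM in CTRL, on 1 to 11 reads per library.

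The H2B genes gave 5 of the 14 average calls and none lower. HIST1H2BK, a core H2B gene with known polyadenylated mRNAs, was higher in all 4 lines. It stood at 15.5, 12.9 and 17.4 TPM in siIRF4 and at 10.8, 9.95 and 8.75 TPM in CTRL of MM1R. In MM1S it stood at 35.5, 38.2 and 40.8 TPM in siIRF4 and at 34.1, 28.2 and 32.4 TPM in CTRL. In KMS-12-BM it stood at 104, 86.1 and 96.7 TPM in siIRF4 and at 66.2, 68.9 and 66.6 TPM in CTRL. The groups were apart in these 3 lines, narrowly in MM1S, and also in KMS-12-PE, with 76.3, 74.3 and 72.5 TPM in siIRF4 and 50.7, 46.3 and 48.1 TPM in CTRL. The log2 differences were 0.58, 0.27, 0.50 and 0.61 (SE 0.09 each), with limma adjusted p of 1.69e-05, 0.0173, 0.000452 and 1.51e-05. Leaving out the 4 libraries, the difference in MM1S was 0.27 with an adjusted p of 0.059, and the average over the lines was 0.51, against 0.49 with all libraries. The call in MM1S was also lost without siIRF4 replicate 3 alone (limma adjusted p = 0.0812) or CTRL replicate 2 alone (0.19, limma adjusted p = 0.112).

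HIST1H2BD, a further H2B gene with known polyadenylated mRNAs, was higher in MM1S and both KMS-12 lines. In KMS-12-BM it stood at 49.6, 45.7 and 38.5 TPM in siIRF4 and at 24.7, 17.5 and 18.8 TPM in CTRL, a difference of 1.10 ± 0.18 (limma adjusted p = 0.000309). In KMS-12-PE it stood at 38.3, 46.6 and 41.2 TPM in siIRF4 and at 22.5, 26.2 and 30.8 TPM in CTRL, a difference of 0.65 (limma adjusted p = 0.00867). In both lines the groups were apart. In MM1S the difference was 0.48 (limma adjusted p = 0.036) and in MM1R 0.14 (limma adjusted p = 0.581), at levels of 3.06 to 4.12 TPM in siIRF4 and 2.08 to 4.68 TPM in CTRL of MM1R. With the 4 libraries left out, the limma adjusted p was 0.0728 in MM1S and 0.0943 in KMS-12-PE, and the call in MM1S was lost on leaving out siIRF4 replicate 1 or 3 or CTRL replicate 2 or 3 (limma adjusted p = 0.0828 to 0.128).

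HIST1H2BN was higher in MM1R, MM1S and KMS-12-PE, at 0.66, 0.78 and 0.78 (limma adjusted p = 0.0427, 0.0166 and 0.0221), and was not called in KMS-12-BM at 0.59. HIST1H2BJ was higher in the KMS-12 lines, with 21.1, 22.1 and 18.8 TPM in siIRF4 and 10.9, 11.9 and 11.0 TPM in CTRL of KMS-12-PE, without overlap. Its differences were 0.82 in KMS-12-PE and 0.57 in KMS-12-BM (limma adjusted p = 0.000724 and 0.0253), against -0.42 in MM1R and -0.35 in MM1S, which were not called. The effect in the MM1 lines minus that in the KMS-12 lines was -1.08 ± 0.17 (limma adjusted p = 3.08e-05). HIST1H2BC, a gene with known polyadenylated mRNAs, was called in no line, and its average was -0.15 (limma adjusted p = 0.571).

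**Figure D4:**
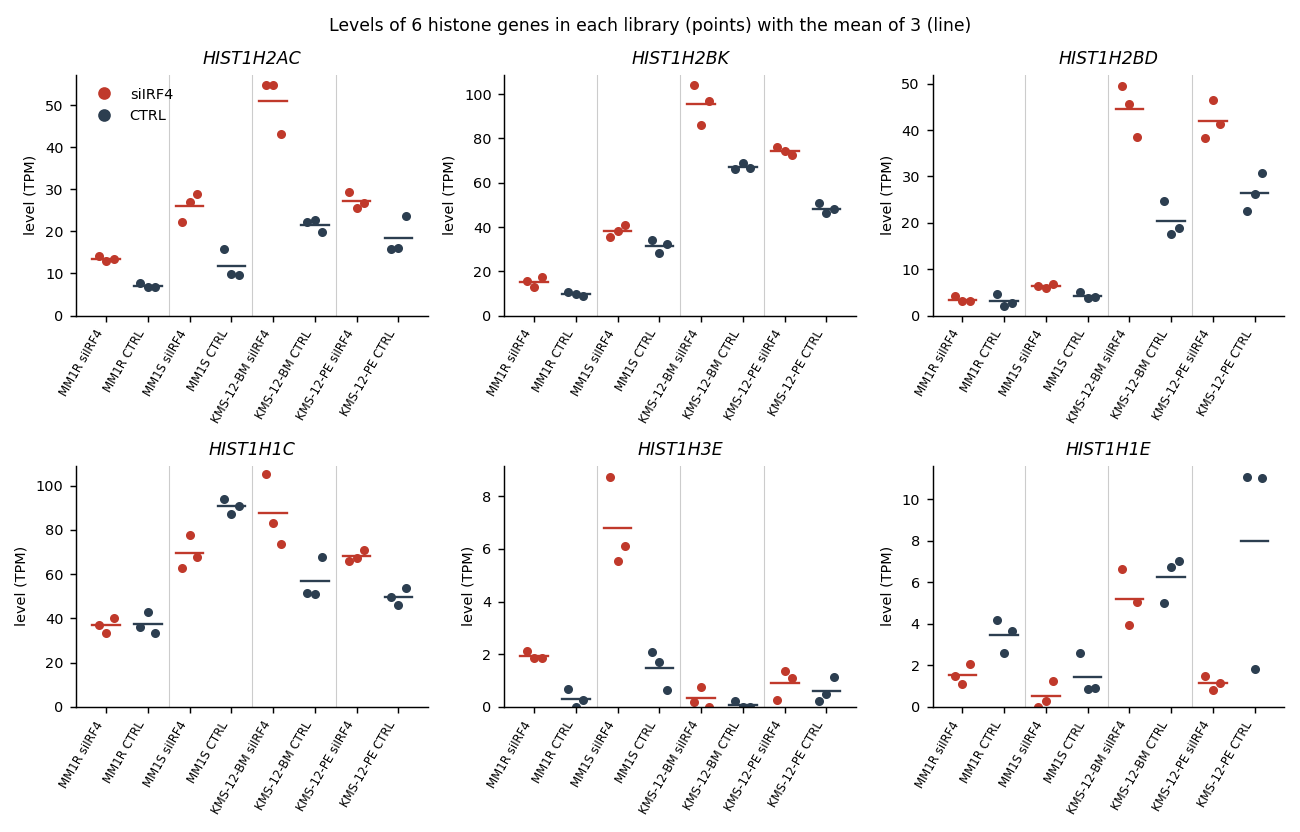
Level in TPM of 6 members in every library, with siIRF4 (red) left of CTRL (dark) for each line; lines are means of 3. HIST1H2AC and HIST1H2BK are higher in siIRF4 in every line, the HIST1H3E groups are apart in MM1R and MM1S, and the 2 high HIST1H1E points in KMS-12-PE CTRL are replicates 1 and 3.

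Among the H3 genes, HIST1H3E was higher in both MM1 lines. In MM1S it stood at 8.72, 5.56 and 6.13 TPM in siIRF4 and at 2.08, 1.72 and 0.656 TPM in CTRL, a difference of 1.68 ± 0.28 (limma adjusted p = 7e-05). In MM1R it stood at 2.13, 1.87 and 1.84 TPM in siIRF4 and at 0.689, 0 and 0.248 TPM in CTRL, a difference of 1.20 (limma adjusted p = 0.00192). The groups were apart in both lines, on 8 to 34 reads per siIRF4 library. In the KMS-12 lines it stood at 1.36 TPM or less in every library and its differences were 0.26 and 0.22, neither called. The effect in the MM1 lines minus that in the KMS-12 lines was 1.20 ± 0.28 (limma adjusted p = 0.00211), and 1.27 without the 4 libraries.

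HIST1H3H, another core H3 gene, was called in the KMS-12 lines instead. In KMS-12-BM it stood at 16.1, 17.3 and 14.5 TPM in siIRF4 and at 9.16, 6.45 and 7.21 TPM in CTRL, a difference of 0.99 ± 0.29 (limma adjusted p = 0.0248). In KMS-12-PE it stood at 8.40, 7.81 and 9.33 TPM in siIRF4 and at 6.11, 2.09 and 6.25 TPM in CTRL, a difference of 0.81 (limma adjusted p = 0.0357). The groups were apart in both lines, but the effect in the MM1 lines minus that in the KMS-12 lines, -0.62, had a limma adjusted p of 0.0923. With the RMRP and RPPH1 covariate it was -0.80 and was called (limma adjusted p = 0.0333), and without the 4 libraries it was -1.03. The difference in KMS-12-PE was 1.13 with the covariate (limma adjusted p = 0.0137) and 1.62 without the 4 libraries, where CTRL replicate 2 alone was left. Leaving out CTRL replicate 2 gave 0.40 in KMS-12-PE (limma adjusted p = 0.221), and leaving out any siIRF4 library there, or siIRF4 replicate 1 or 2 or CTRL replicate 2 or 3 in KMS-12-BM, gave adjusted p of 0.0581 to 0.0992. HIST1H3G, the H3 gene with the highest mean (7.23 TPM), was lower in MM1S at -0.56 (limma adjusted p = 0.0322, 0.0738 without the 4 libraries, and up to 0.118 without siIRF4 replicate 1 or 2 or CTRL replicate 1).

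The H4 genes gave few calls. HIST1H4K was higher on average at 0.66 ± 0.15 (limma adjusted p = 0.000877) and in KMS-12-PE, with 1.65, 3.06 and 2.83 TPM in siIRF4 and 0.605, 0.932 and 0.895 TPM in CTRL, on 2 to 12 reads. That call in KMS-12-PE was lost without siIRF4 replicate 2 or 3 or CTRL replicate 1 (limma adjusted p up to 0.0725), and without the 4 libraries (0.84, limma adjusted p = 0.2). HIST4H4, the gene on chromosome 12, was higher in MM1S, with 1.44, 2.71 and 3.70 TPM in siIRF4 and 0.467, 0.321 and 0.981 TPM in CTRL, a difference of 1.16 ± 0.29 (limma adjusted p = 0.00283). HIST1H4H, the H4 gene with the highest mean (7.55 TPM), was higher in MM1S at 0.71 (limma adjusted p = 0.0378, 0.0814 without the 4 libraries, and up to 0.145 without siIRF4 replicate 2 or 3 or CTRL replicate 2 or 3). HIST1H4C stood at 9.09, 6.37 and 10.5 TPM in siIRF4 and at 14.4, 15.0 and 15.3 TPM in CTRL of MM1R. Those groups were apart, but the difference of -0.75 had a limma adjusted p of 0.26.

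The 6 genes with known polyadenylated mRNAs, HIST1H1C, HIST1H2AC, HIST1H2BC, HIST1H2BD, HIST1H2BK and HIST2H2BE, are described apart from the rest. On average 5 of the 6 were higher and none lower, with a median of 0.39 on the log2 scale, while of the other 47 members 9 were higher and 4 lower, with a median of -0.04, beside 33.1% of all genes higher. In KMS-12-BM 5 of 6 and 3 of 47 were higher, in KMS-12-PE 4 of 6 and 5 of 47, in MM1S 3 of 6 and 6 of 47, and in MM1R 2 of 6 and 2 of 47. Of all genes, the shares called higher in these lines were 11.4%, 15.9%, 29.1% and 25%. With the 4 libraries left out, 4 of 6 and 12 of 47 were higher on average, 3 of 6 and 10 of 47 in KMS-12-PE, 2 of 6 and 4 of 47 in MM1S, 5 of 6 and 4 of 47 in KMS-12-BM, and 2 of 6 and 2 of 47 in MM1R. By mean TPM the 6 rank 1, 3, 7, 4, 2 and 24 among the 53 members, in the order named above. Lower members rest on fewer reads, and log2(TPM + 1) shrinks their differences. The difference between the shares of these 6 genes and the other 47 was not tested, nor was the part of their level in it. The list was chosen with earlier results of these data known. HIST2H2BE, with the longest gene model, was called on average at 0.29 ± 0.09 (limma adjusted p = 0.00672).

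H2A and H2B genes often lie head to head, and 9 such pairs of members have starts 219 to 331 bases apart. In none of the 9 pairs were both genes called on average. HIST1H2AC was higher at 0.92 while HIST1H2BC, whose start lies 219 bases away, stood at -0.15. HIST1H2BK was higher at 0.49 while HIST1H2AH, 331 bases away, stood at -0.32, and HIST2H2BE was higher at 0.29 while HIST2H2AC stood at -0.19. HIST3H2A and HIST1H2AI were called higher with partners, HIST3H2BB and HIST1H2BL, at -0.01 and -0.03. The partners HIST1H2AH, HIST1H2BL and HIST3H2BB had means of 1.41, 1.98 and 1.36 TPM, against 9.86 TPM for HIST1H2BC and 9.19 TPM for HIST2H2AC. With the RMRP and RPPH1 covariate, HIST1H2AG and its partner HIST1H2BJ were both called higher in KMS-12-PE, at 1.19 and 0.998. The limma adjusted p was 0.0133 and 0.000568. Whether genes of a pair were called together less often than other genes was not tested.

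The effects of siIRF4 differed between the MM1 and the KMS-12 lines for 14 members, 3 with a higher and 11 with a lower effect in the MM1 lines, where 25% of all genes had a higher and 20% a lower effect (44.9% in either direction). The 6 H2B genes among them, HIST1H2BD, HIST1H2BG, HIST1H2BH, HIST1H2BJ, HIST1H2BM and HIST2H2BE, all had a lower effect in the MM1 lines, from -1.08 to -0.49. Between MM1R and MM1S no member differed in limma at an adjusted p under 0.05, where 2.47% of all genes did, 1.14% higher and 1.33% lower. At an unadjusted p under 0.05 the same fit had 6 members, and voom on the recovered reads gave 0 at an adjusted p under 0.05. Between the KMS-12 lines HIST1H1B, HIST1H2AI and HIST2H3D had a higher effect in KMS-12-BM, and that of HIST1H1B follows in part from the filter. These 3 members differed where 15.9% of all genes were higher and 7.11% lower (23% in all). None of these 3 did without the 4 libraries, while HIST1H3J then had a lower effect in KMS-12-BM (-1.15, limma adjusted p = 0.0408).

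Genes of DNA replication were lower in both MM1 lines. All 32 DNA synthesis genes of S phase were called lower in MM1R and in MM1S, with medians of -0.65 and -0.80. The counts were 2 lower for KMS-12-BM, and 10 lower with 1 higher for KMS-12-PE. Over all genes, the shares called lower were 21.2%, 21.1%, 6.09% and 22.2%, by line in that order, and 15.9% were higher in the last. The 2 of 32 for KMS-12-BM were thus near the background share and read as no result. Whether the list differed from all genes was not tested. CDC45, a subunit of the replicative helicase, differed by -0.82 in MM1R and -1.07 in MM1S, and by -0.26 and -0.38 in the KMS-12 lines. On average FEN1, which trims Okazaki fragments, differed by -0.43 and GINS4, another helicase subunit, by -0.48. In MM1R and MM1S the 53 histone members had medians of -0.09 and -0.07.

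Of 19 genes for transcription and processing of histone mRNA, 1 was higher and 14 lower on average. Of all genes, 33.1% were called higher and 26.5% lower on average, which is also the background for the chaperone and variant genes below. SLBP, which binds the stem-loop, differed by -0.44 in MM1R and -0.56 in MM1S (limma adjusted p = 7.85e-07 and 2.47e-08), against -0.09 in each KMS-12 line, not called. NPAT, the coactivator of histone genes in S phase, differed by -0.32 and -0.27 in the MM1 lines, and ERI1, an exonuclease that trims the stem-loop, by -0.38 on average. HINFP, a factor of H4 promoters, was the gene called higher, at 0.10. Of 22 histone chaperone and assembly genes, 4 were higher and 15 lower on average, among them CHAF1A, a subunit of the assembly factor CAF-1, at -0.44. The subunits of the chaperone FACT went opposite ways on average, with SSRP1 at -0.26 and SUPT16H at 0.11 (limma adjusted p = 9.43e-12 and 4.36e-05), and CABIN1 was higher at 0.44. Of 9 replication-independent variant genes tested, 1 was higher, H2AFJ at 0.23, and 5 lower, led by H2AFZ at -0.43.

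Without siIRF4, histone genes were lower in the MM1 lines than in the KMS-12 lines for most members. In CTRL 42 members were lower and 2 higher in the MM1 than in the KMS-12 lines, where 44.8% of all genes were lower and 40.4% higher (85.2% in all). The median difference was -0.95 on the log2 scale over members and -0.05 over all genes. All 13 H2A and all 17 H2B genes had a negative difference, 11 and 15 of them called. The largest differences among members were HIST1H2BD at -2.39 ± 0.13, with a mean of 3.14 TPM in MM1R and 4.28 TPM in MM1S against 20.3 and 26.5 TPM in the KMS-12-BM and -PE lines, and HIST3H2A at -2.33 ± 0.16, with 2.42 and 6.35 TPM against 35.0 and 15.7 TPM. Leaving out the 4 libraries, 35 members were called in either direction, against 44 with all.

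HIST1H4C and HIST1H3C were the 2 members called higher in the MM1 lines. The other 9 members were not called, among them HIST1H1C at 0.14 and HIST1H3E at 0.44 (limma adjusted p = 0.163 and 0.052). HIST1H4C stood at 14.4, 15.0 and 15.3 TPM in CTRL of MM1R and at 6.91, 4.41 and 4.41 TPM in MM1S, against 0.813, 1.19 and 0 TPM in KMS-12-BM and 8.51, 6.77 and 12.7 TPM in KMS-12-PE. Its order was therefore MM1R, KMS-12-PE, MM1S and KMS-12-BM, and KMS-12-PE and MM1S lay close, at 6.77 and 6.91 TPM in their nearest libraries. HIST1H3C was listed at 0 in 4 of the 6 KMS-12 CTRL libraries and stood at 0.750 to 2.94 TPM in CTRL of the MM1 lines, the only lines through which it passed the filter.

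Within the related pairs, 15 members differed between CTRL of MM1R and MM1S, 5 higher and 10 lower in MM1R, where 29.7% of all genes were higher and 27.6% lower (57.3% in all), and 16 differed without the 4 libraries. HIST1H2BK had the smallest p among members, at 10.8, 9.95 and 8.75 TPM in MM1R and 34.1, 28.2 and 32.4 TPM in MM1S, by -1.59 ± 0.09 (limma adjusted p = 5.4e-12). HIST1H1C likewise was lower in MM1R, by -1.26, and HIST1H2BH higher, by 1.10. Between the KMS-12 lines 18 members differed, 14 higher and 4 lower in KMS-12-BM, where 37.3% of all genes were higher and 40% lower (77.3% in all), and 27 differed once the 4 libraries were left out. There HIST1H4K differed by 1.78 and HIST1H4C by -2.67 on the log2 scale.

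**Figure D5:**
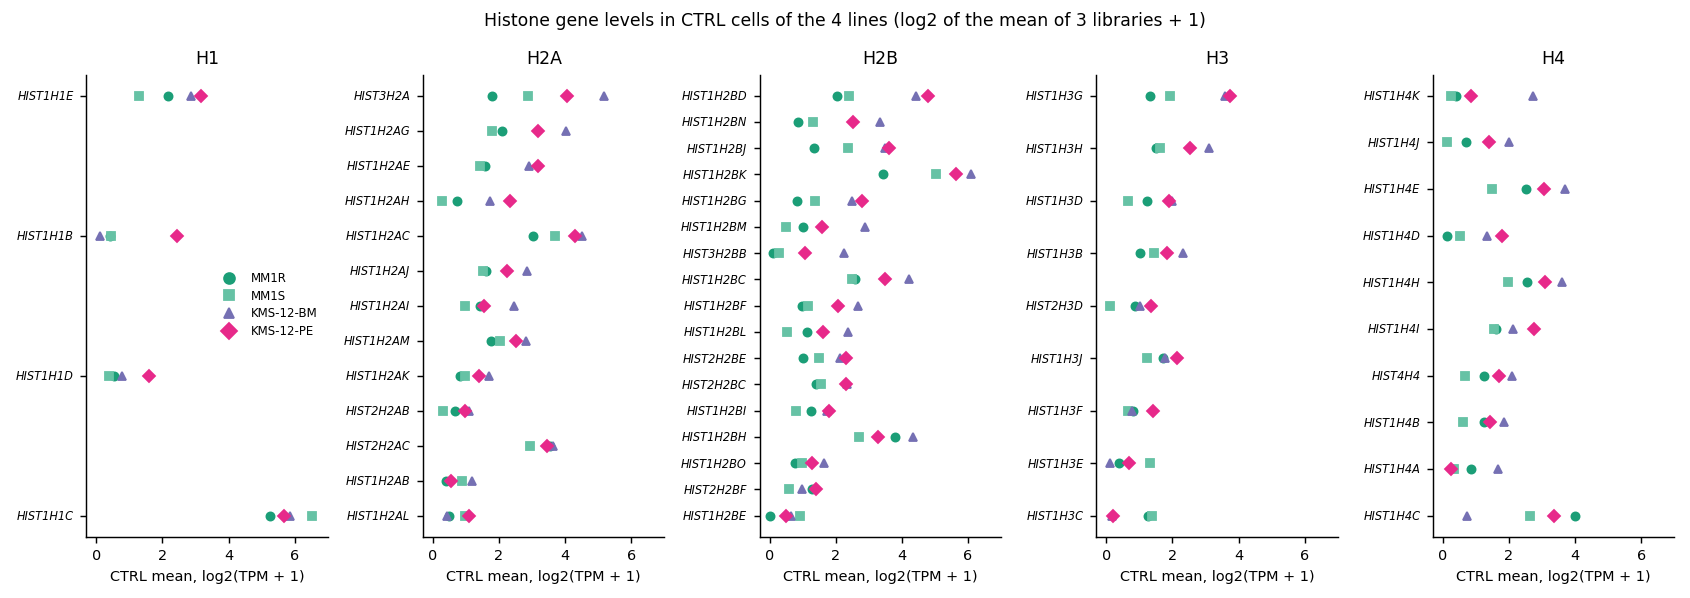
Mean level in CTRL of the 4 lines as log2(TPM + 1) of the mean of 3 libraries (horizontal axis) for each member (rows, by family). Green circles and squares are MM1R and MM1S, violet triangles KMS-12-BM, and pink diamonds the KMS-12-PE line; the green symbols mostly lie left, with HIST1H4C and HIST1H3C the members called the other way.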

How the data were processed

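Expression was measured by RNA sequencing in 24 libraries, 3 siIRF4 and 3 CTRL of each of 4 lines, grouped by their labels. The deposited values are TPM made by the authors. The submitters' processing notes name hg19, STAR, featureCounts, FastQC and MultiQC, with no versions. The kit named in the labels' protocols is a NEBNext Ultra II RNA library kit. Each column sums to 1 M over 25370 rows; 28 rows whose symbols had become dates and 1 row with no name were left out.

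Values were tested as log2(TPM + 1) for 15113 genes that reached 1 TPM in 3 or more libraries, every member included. The pseudocount of 1 TPM shrinks the differences of low genes. A single fit with 8 group means, a mean for each line and condition, was made in limma 3.58.1 (R 4.3.3) with a trended, robust prior. Calls are two-sided at a Benjamini-Hochberg adjusted p under 0.05 over all genes of a comparison. Log2 differences are siIRF4 minus CTRL with their SE, MM1R minus MM1S, KMS-12-BM minus KMS-12-PE, or the mean of the MM1 lines minus that of the KMS-12 lines. The fit was tested on simulated data with known changes.

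Whole reads were recovered from the TPM of 20483 genes (tolerance 0.02 reads, values in at least 6 libraries), which made up 99.24% or more of the TPM of every library, and gave 17.15 to 27.16 M reads per library; voom on these reads was an alternative. Gene model lengths follow from reads and TPM. Tables were handled with Python 3.11.15, pandas 2.3.3 and numpy 2.4.6, and plots with matplotlib 3.10.9. Other settings tried were a smaller pseudocount (0.1), the filter dropped or raised to a mean of 5 TPM, scaling by median of ratios, an untrended prior, the replicate number as a block, lines fitted apart, and leaving out libraries 1 at a time. Leaving out the 4 libraries high in RMRP and RPPH1, and a covariate of these RNAs, were added after the data were seen.

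Any member could be named; in each family those with the highest mean TPM and the smallest p are given in full, and of other lists up to 3 genes in each direction. Members and lists were chosen with earlier results of these data known. Sequences are from GENCODE release 29 and RefSeq.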

Additional observations from a re-analysis of the deposited data

Results flagged for a closer look

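The effect of siIRF4 differed by a test of the difference itself, at a limma adjusted p under 0.05, for 14 members between the MM1 and the KMS-12 lines and for 3 members between the KMS-12 lines. Of the first 14, HIST1H3E (1.20), HIST1H1D (0.79) and HIST4H4 (0.77) had the higher effect in the MM1 lines on the log2 scale. HIST1H1D reached 1 TPM in CTRL libraries of the KMS-12 lines only, so its difference follows in part from the filter. The lower effect was that of HIST1H2BJ (-1.08), HIST1H2AE (-0.89), HIST1H2BM (-0.87), HIST1H2BG (-0.81), HIST1H1C (-0.73), HIST2H2AC (-0.67), HIST1H3G (-0.61), HIST1H2BD (-0.57), HIST1H2BH (-0.53), HIST2H2BE (-0.49) and HIST1H2AL (-0.44). Without the 4 libraries high in RMRP and RPPH1, HIST1H1D, HIST4H4, HIST1H2BD, HIST1H2BG and HIST1H2AL were not called. HIST1H2AG, HIST1H2BO, HIST1H3H, HIST1H3J and HIST1H4E, outside the 14, were called lower instead. With these RNAs as a covariate and all libraries kept, 1 higher and 15 lower members were called, of which 1 and 10 were among the 14. HIST1H1D, HIST4H4 and HIST1H2AL were not called with the covariate.

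Between the KMS-12 lines, HIST1H1B (1.40), HIST2H3D (1.20) and HIST1H2AI (1.09) had the higher effect in KMS-12-BM. Without the 4 libraries they stood at 0.16, 0.85 and 0.56, with limma adjusted p of 0.729, 0.3 and 0.406. These libraries include 2 of the 3 KMS-12-PE CTRL libraries. HIST1H1B passed the filter through KMS-12-PE only, so its difference follows in part from the filter.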

How the results depend on the processing

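None of 36 results of 13 named members changed direction under the settings run for them. Among other calls, HIST1H2AH in KMS-12-PE (-1.13) stood at 0.18 without the 4 libraries (limma adjusted p = 0.804). Counts are of members called in limma, and those not named here stayed within 1.5 times their value. With a pseudocount of 0.1 there were 7 lower in MM1S, 5 higher and 0 lower in KMS-12-BM, 5 higher and 2 lower in KMS-12-PE, and 0 for the difference between the KMS-12 lines. With no filter, KMS-12-BM had 0 lower, the average 1 lower, and the difference between the KMS-12 lines 1.

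Where a mean of at least 5 TPM was asked, 17 members remained, and calls were 0 lower in either KMS-12 line, 7 higher and 1 lower on average, 1 for the difference between the KMS-12 lines, 7 for that between MM1 and KMS-12 lines, and, in CTRL, 8 between the KMS-12 lines and 16 between MM1 and KMS-12 lines. Separate fits of each line gave 9 lower in MM1R, 0 lower in either KMS-12 line, and 0 for the difference between the KMS-12 lines; they gave no value for comparisons over both pairs of lines. Voom on recovered reads gave 0 lower in KMS-12-BM and 3 lower in KMS-12-PE.

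Leaving out the 4 libraries gave 7 lower in MM1R, 0 lower in KMS-12-PE, 1 lower on average and 1 for the difference between the KMS-12 lines, and the RMRP and RPPH1 covariate 5, 2, 2 and 0. Same-numbered siIRF4 and CTRL libraries deviated together with r between -0.088 and 0.086 across genes, so the numbers do not pair the samples; with the replicate block KMS-12-BM had 0 lower and KMS-12-PE 3 lower.

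With 1 library left out in turn, higher and lower members were 3 to 5 and 2 to 5 in MM1R, 5 to 10 and 1 to 6 in MM1S, 5 to 10 and 0 to 1 in KMS-12-BM, 5 to 11 and 2 to 9 in KMS-12-PE, and 12 to 15 and 1 to 9 on average. Differences of effects numbered 0 to 1 between the MM1 lines, 0 to 14 between the KMS-12 lines and 11 to 15 between MM1 and KMS-12 lines. CTRL differences numbered 10 to 19, 15 to 23 and 41 to 47 in the same order. KMS-12-PE CTRL replicate 2, the library of its group with low RMRP, gave the highest of these counts: without it 9 members were lower in KMS-12-PE, 9 on average, and 14 differed between the KMS-12 lines. KMS-12-PE had 5 higher without that library or siIRF4 replicate 3, and 2 lower without siIRF4 replicate 3 or CTRL replicate 1 and 3 without CTRL replicate 3. MM1S had 5 higher without CTRL replicate 2, and 1 or 2 lower without siIRF4 replicate 1 or 2 or CTRL replicate 1. KMS-12-BM had 5 higher without siIRF4 replicate 2. MM1R had 5 lower without its siIRF4 replicate 1, MM1S CTRL replicate 1 or KMS-12-PE CTRL replicate 2. Calls lower on average were 1 or 2 without any of 13 other libraries. The 1 call lower in KMS-12-BM, HIST1H4A, was lost without any of 12. Calls between the KMS-12 lines were 0 or 1 without any of 10. Low counts limit most members: only 9 have gene models of 600 bases or more.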
